A study of Papio anubis with 40 samples.

Results

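Internal fragments of tRNA-Lys-CTT, the lysine transfer RNA whose anticodon CTT reads the codon AAG, were few and short in baboon serum and came mostly from a single place. Most of their counts began in the D loop and ended at the 5′ edge of the anticodon loop. The fragments were taken as all sequences of 16 to 36 nt that are an exact part, beginning at base 5 or later, of either of a pair of 56-nt Lys-CTT reads. This rule uses sequence only, and it found 380 of the 58587 fragments in the table. They held 35739 of 130892201 counts, or 273 CPM (counts per 1000000 counts).

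Serum was drawn from 8 olive baboons (Papio anubis), named PA8001, PA8003, PA8835, PA8872, PA8873, PA8912, PA8914 and PA8915, before inoculation (month 0) and again at months 3, 6, 9 and 15. All 8 animals received menstrual tissue in the peritoneal cavity at laparoscopy, which induces endometriosis, the growth of endometrium-like tissue outside the uterus, and the labels give no drug or other treatment. No animal was left without inoculation, so time since inoculation and anything else that changed between draws cannot be told apart. Small RNA from 0.5 mL of serum per draw gave 40 libraries, 8 per month, with 198840 to 6245450 counts each.

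A tRNA folds into a cloverleaf whose D arm, anticodon arm and T arm each end in a loop. Ribonucleases such as angiogenin cut the exposed anticodon loop in mammalian cells and leave a 5′ and a 3′ piece, and the 5′ pieces are known to be abundant in blood. Internal fragments have both ends inside the mature tRNA. Serum is a mixture of RNA from many sources, so fewer cells releasing a fragment and less fragment per cell cannot be told apart.

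The pair of reads is shown first because every position below is counted along them, from base 1 at the 5′ end. In all sequences here capitals mark the bases at which the pair differs, written G29A and C41T from the first read to the second. Base pairing read from the sequences placed the D loop at bases 14 to 21, with its stem at 10 to 13 and 22 to 25, and the anticodon loop at bases 32 to 38, with its stem at 27 to 31 and 39 to 43. Both reads were seen in 39 libraries, with 1506 counts for the first and 700 for the second.
First read (tRF-56-PSQP4PW3FJIKE7UMKKSWRND): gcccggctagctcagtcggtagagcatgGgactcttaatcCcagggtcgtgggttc
Second read (tRF-56-PSQP4PW3FJI0E7UM8KSWRND): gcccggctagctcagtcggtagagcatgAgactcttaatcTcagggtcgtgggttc

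The leading fragments are shown next because they are the most abundant of their starts or are named in the comparisons of months below. Their names are codes for the sequence, with the length in nt after "tRF".
tRF-17-S8V0J8L, bases 15 to 31: gtcggtagagcatgGga
tRF-16-S8V0J80, bases 15 to 30: gtcggtagagcatgGg
tRF-18-S8V0J8DR, bases 15 to 32: gtcggtagagcatgGgac
tRF-18-S8V0JUDR, bases 15 to 32 of the second read: gtcggtagagcatgAgac
tRF-20-S8V0J8O9, bases 15 to 34: gtcggtagagcatgGgactc
tRF-27-S8V0J8O9YEJ, bases 15 to 41: gtcggtagagcatgGgactcttaatcC
tRF-18-1SS2P4DX, bases 14 to 31: agtcggtagagcatgGga
tRF-19-1SS2P4IR, bases 14 to 32: agtcggtagagcatgGgac
tRF-20-JMRPFQRD, bases 13 to 32: cagtcggtagagcatgGgac
tRF-36-S2P46INO86RM7KE, bases 19 to 54: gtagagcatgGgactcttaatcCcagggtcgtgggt

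Counts were concentrated in a few of the 380 fragments. The leading 3, tRF-17-S8V0J8L with 7990 counts, tRF-16-S8V0J80 with 4722 and tRF-18-S8V0J8DR with 4511, held 48.2% of the counts, and the leading 10 held 67.1%. These 3 share their first base and differ by 1 base at the 3′ end. At the other extreme 73 fragments had a total of 1 count, 230 had under 10, and 38 had at least 100. A library held 3 to 171 of the 380.

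Base 15, the second base of the D loop, was the first base of 20726 counts, or 58.0%. Base 14 followed with 3432 counts, base 13 with 2703, base 19 with 1861, base 16 with 1784 and base 17 with 1392. Starts at bases 13 to 19 together held 91.4% of counts. Starts at base 21 or later were nearly absent, with 43 counts in 24 fragments, which the lower length limit described below sets in part. The fragments that began at bases 5 to 12 lay between these and the 5′ end, at 1.80% of counts for base 5 and 1.66% for base 12.

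The last base was 31 in 11845 counts, 32 in 8921 and 30 in 6132, together 75.3%. These bases lie on both sides of the step from the anticodon stem to its loop, where the 5′-side fragments below also end. Base 34, the first base of the anticodon, ended 3265 counts. Further ends stood out in the 3′ strand of the anticodon stem, with 1414 counts at base 41, and at base 54, with 1327. Fragments that held the whole anticodon numbered 190 and made up 11.1% of counts.

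**Figure D1:**
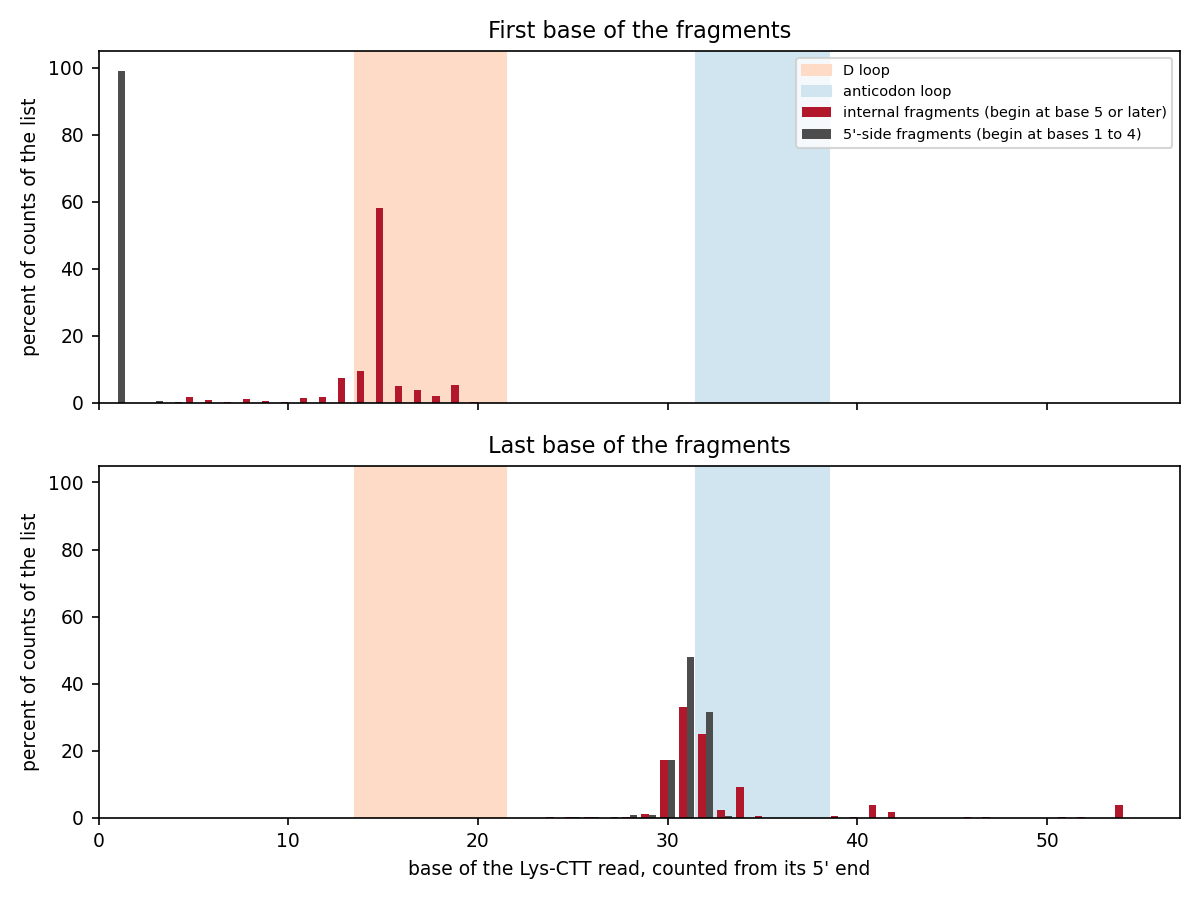
First base (upper panel) and last base (lower panel) of the internal fragments (red) and of the 5′-side fragments of the same reads (grey), as percent of the counts of each over 40 libraries; shading marks the D loop and the anticodon loop. The internal fragments peak at first base 15 with 58.0% and share the last bases 30 to 32 with the 5′-side fragments.

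Lengths of 16 to 20 nt held 81.3% of counts, with a median of 18 nt. Fragments of 16 nt alone held 19.6%, and 16 nt is also the shortest length in the table. A start at base 15 with a length of at least 16 nt cannot end before base 30, and a start at base 17 cannot end before base 32, so the sharp lower edge of the ends is set in part by this limit. Starts after base 17 cannot have the common ends at bases 30 to 32 at all. The fall in counts for later starts is therefore also set in part by this limit. Shorter pieces were not analysed here. The length of 36 nt stood above its neighbours, with 3.67% of counts against 0.224% for 35 nt, through tRF-36-S2P46INO86RM7KE with 1167 counts. This fragment runs from the D loop across the whole anticodon arm to base 54. Longer rows with the same last base were also present, tRF-37-RPFQRDWXHR13M8N from base 18 with 323 counts and tRF-40-S8V0J8O9YEKPRS93 from base 15 with 226, so ends at base 54 also occurred above the upper length of the rule.

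**Figure D2:**
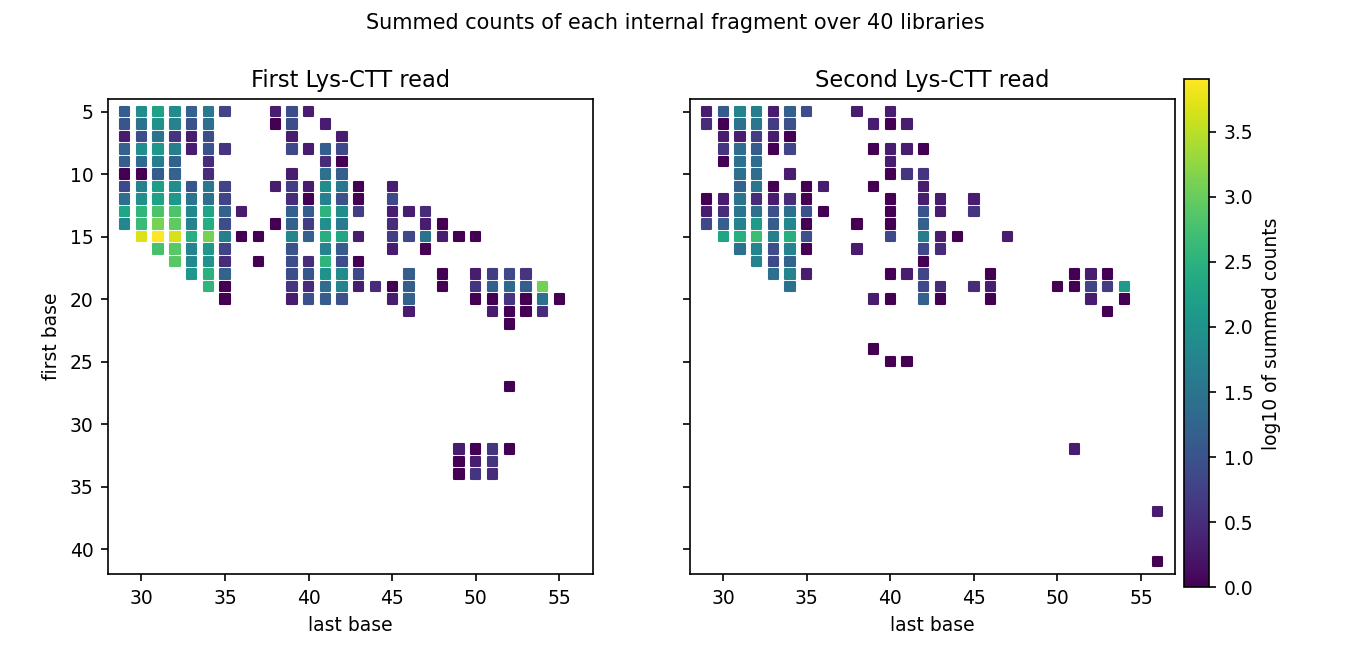
Summed counts over 40 libraries (colour, log10) of each internal fragment by first base (vertical axis) and last base (horizontal axis), for fragments found only in the first read (left) and only in the second read (right). Both reads have their highest counts at first base 15, the first read at last base 31 and the second at last base 32, and both have a separate point at bases 19 to 54.

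The first read supplied most of the counts of the internal fragments. Fragments that hold base 29 or 41 can be assigned to a read, and the first read alone held 210 fragments with 32650 counts, against 139 fragments with 2839 counts for the second. That is 92.0% of assigned counts for the first read (95% Wilson interval 91.7 to 92.3). The other 31 fragments, with 250 counts, fit both. The 5′-side fragments of the same reads, which begin at bases 1 to 4 and number 96 with 647738 counts, had only 41.5% of assigned counts from the first read (41.4 to 41.6). Both intervals pool the counts of all libraries and cover counting error only, not the spread between animals.

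The split held library by library. Averaged over the months of each animal, the first read's share was 92.2% ± 0.958 in internal fragments and 45.5% ± 7.40 in 5′-side fragments (SD, n = 8 animals). The internal share was higher in 40 of 40 libraries and in 8 of 8 animals, and the ranges of libraries did not overlap, at 84.3% to 100% for internal and 27.6% to 67.1% for 5′-side fragments. Per 100 5′-side counts there were 12.3 internal counts for the first read and 0.761 for the second. Leaving out the 3 libraries that stood apart, those of PA8001 and PA8003 at month 15 and of PA8001 at month 0, gave 92.6% for internal and 41.8% for 5′-side fragments. This contrast was chosen after it was seen and is a description, with no p. Reads that carry bases 15 to 31 of either sequence with 1 difference before or after these bases were also in the table. They had 11088 counts for the first read and 25116 for the second, and those that differ upstream were not counted apart. Internal counts from close copies that differ only upstream cannot be told apart from those of the pair.

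**Figure D3:**
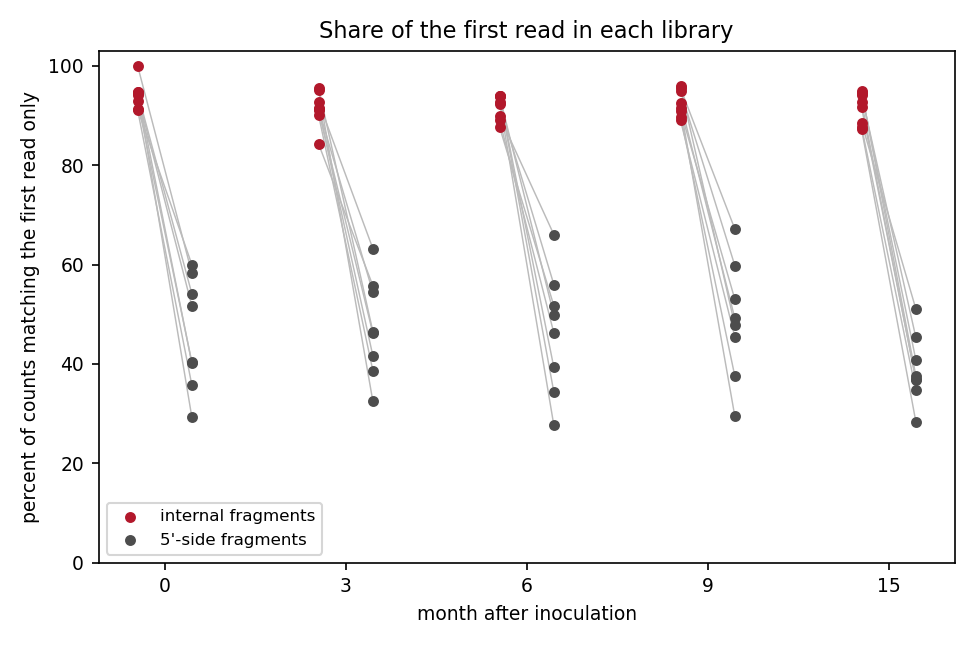
Percent of counts matching the first read only, in internal fragments (red) and 5′-side fragments (grey) of each of 40 libraries by month; a line joins the values of 1 library. All internal values lie at 84.3% or above and all 5′-side values at 67.1% or below.

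The reads also differed in where fragments ended, with ends further 3′ in the second read in both classes. Internal fragments of the first read ended at base 31 in 34.4% of counts, at 32 in 24.5% and at 30 in 18%, whereas those of the second ended at 32 in 32.5%, at 31 in 21.3% and at 34 in 19.6%. The shares by read pool all libraries, with no spread between animals. PA8003 at month 15 alone gave 608 of the 2839 internal counts of the second read. Among 5′-side fragments, those of the first read ended at base 31 in 48.7% and at base 30 in 40%, and those of the second at base 32 in 49.1% and at base 31 in 49.0%. Base 29, which differs between the reads, lies 1 to 3 bases before the ends at 30 to 32. Base 15 was the leading start in both reads, at 59.4% of counts for the first read and 47.2% for the second. Over all reads, the ends at bases 30 to 32 held 72.8% ± 4.96 of internal and 96.2% ± 1.27 of 5′-side counts (SD, n = 8 animals), lower for internal fragments in 40 of 40 libraries.

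The nearest relative is tRNA-Lys-TTT, which shares most of its 5′ side with Lys-CTT. Within bases 1 to 32, Lys-CTT had 4.28 internal counts per 100 5′-side counts and Lys-TTT had 1.91. The Lys-TTT value joins a pair of 32-nt reads that share most of their internal fragments. Counted singly, tRF-32-PYRP4PW3FJHP1 had 8.37 and tRF-32-PSDP4PW3FJHP1 had 2.43, but the 4.28 of Lys-CTT also joins a pair. The Lys-CTT reads were not counted singly within bases 1 to 32. Over all ends they had 12.3 for the first and 0.761 for the second, so no order between the tRNAs is given. Base 15 was the leading start in both tRNAs, with 66.05% of the internal counts in Lys-CTT and 26.4% in Lys-TTT. Fragments of 1 tRNA that match the other were not split, and the contrast is a description.

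Summed over all 380, internal fragments had 275 ± 141 CPM of the library total at month 0, 217 ± 71.4 at month 3, 181 ± 131 at month 6, 173 ± 77.4 at month 9 and 577 ± 396 at month 15 (SD, n = 8 each). Month 15 ran from 154 to 1249 CPM, with a median of 479, and month 0 from 75.4 to 483, with a median of 260. The groups overlap, and month 15 was higher than the same animal's month 0 in 5 of 8 animals, by a mean of 303 ± 476 (SD). The highest values were the month 15 libraries of PA8003, at 1249, and PA8001, at 1058. In the other 6 animals month 15 averaged 385 and month 0 averaged 312, a difference of 73.6 ± 256 with 3 of 6 higher. The lowest value, PA8001 at month 0, rests on 15 counts in 3 fragments in the smallest library, where 3 counts, the limit that a count of 0 allows, equal 15.1 CPM.

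**Figure D4:**
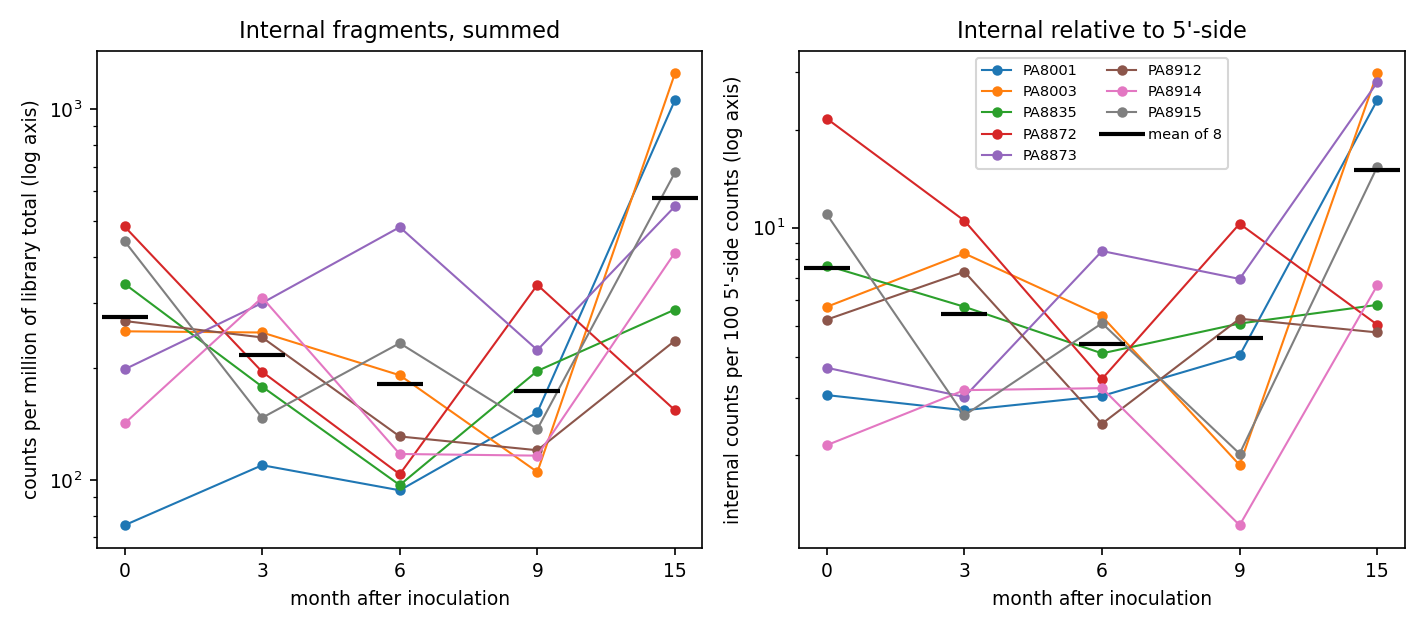
Internal fragments by month in each animal (lines), as CPM of the library total (left) and per 100 5′-side counts (right), on log axes; black bars are means of 8. PA8003 and PA8001 are highest at month 15 in the left panel, at 1249 and 1058 CPM, and the other 6 animals overlap across months.

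The 5′-side fragments averaged 4252 ± 1279 CPM at month 15 and 4327 ± 1458 at month 0 and were higher in 4 of 8 animals. Internal counts per 100 5′-side counts were 15.0 ± 10.9 at month 15 and 7.52 ± 6.36 at month 0, higher in 5 of 8 animals. Without PA8001 and PA8003 they were 10.9 ± 9.24 at month 15 and 8.56 ± 7.12 at month 0, higher in 3 of 6 (SD, n = 6). By start position the animals were less divided for fragments that began before base 15. Those from bases 13 and 14 averaged 118 ± 79.6 CPM at month 15 and 36.2 ± 22 at month 0, higher in 7 of 8 animals, and those from bases 5 to 12 averaged 39.6 ± 18.1 and 21.4 ± 6.84, also higher in 7 of 8. Fragments from base 15 averaged 317 ± 245 at month 15 and 169 ± 93.7 at month 0, higher in 5 of 8.

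Without PA8001 and PA8003 the starts kept this order. Bases 13 and 14 averaged 83.7 CPM at month 15 and 43.1 at month 0 (5 of 6 higher), while base 15 averaged 202 and 195 (3 of 6 higher). Over the 8 animals base 15 held a smaller share of internal counts at month 15, 53.2% ± 5.57, than at month 0, 60.4% ± 5.29, lower in 6 of 8 animals. By last base, fragments ending in the 3′ anticodon stem at bases 39 to 43 averaged 39.8 ± 16.4 CPM at month 15 and 14.3 ± 8.62 at month 0 (7 of 8 higher). Those of the second read averaged 48.2 ± 46.4 CPM at month 15 and 16.6 ± 8.81 at month 0 (7 of 8 higher), with PA8003 at 158 at month 15. Without PA8001 and PA8003 they averaged 27.7 at month 15 and 18.5 at month 0 (5 of 6 higher). Parts of the reads longer than 36 nt averaged 110 ± 63.7 at month 15 and 25.2 ± 15.6 at month 0 (8 of 8 higher). These sums were given no test.

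Single fragments were tested with edgeR's quasi-likelihood test in 1 fit over the 2447 fragments of the whole table that passed a filter on low counts, with the animal as a block and Benjamini-Hochberg adjustment. Of the 380 internal fragments 23 passed the filter and 357 did not. At months 3, 6 and 9 against month 0, 0 of the 23 passed an adjusted p of 0.05, where 0% of all tested fragments passed. In edgeR 0, 5 and 5 of the 23 had an unadjusted p under 0.05, beside 73, 310 and 201 of all 2447 tested fragments. DESeq2 called 0, 1 and 0 internal fragments, the call at month 6 being lower. At month 6 it gave an adjusted p to only 14 internal fragments and to 1877 fragments in all, of which 0.906% passed. The 23 leaned lower at month 6, with a median log2 fold change of -0.54 and 3 of 23 higher, and at month 9, with -0.67 and 5 of 23 higher, beside medians of 0.01 and 0.06 over all tested fragments. The smallest edgeR p at month 6 was that of tRF-16-W3FJIKB (bases 16 to 31), whose log2 fold change of -1.86 ± 0.484 (SE) had an adjusted p of 0.303.

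At month 15 against month 0, 2 of 23 passed in edgeR, both higher, where 2.21% of all tested fragments passed as higher. The log2 fold change was above 0 in 22 of 23, with a median of 0.99 against 0.05 over all tested fragments. The filter used all months, so a fragment high only at month 15 could pass through that month, which favours higher values there. For example, tRF-27-S8V0J8O9YEJ had a median of 4.42 CPM at month 15 and medians of 0.692 to 2.13 at earlier months. With only months 0 and 15 fitted, 14 internal fragments were tested and 0 passed, beside 0% of all tested fragments. The 23 overlap in sequence and come from the same reads, so they are not independent. Neither call held when PA8001 and PA8003 were left out at month 15. In that fit 0 of all 2591 tested fragments passed, the 24 internal fragments tested among them, whose median was 0.32. The number of internal fragments passing was also 0 without all libraries of PA8001, PA8003, PA8912 or PA8914 or without the month 0 library of PA8001, 1 without PA8873 and 3 without PA8835. The share of all tested fragments that passed in either direction, 2.37% in the main fit, moved too. It went to 0% without PA8914, 0.122% without PA8003, 0.484% without PA8001 and 0.743% without PA8001 at month 0. Without PA8912 it was 0.366%, without PA8873 0.286% and without PA8835 3.1%. The scaling factor of PA8003 at month 15 was 0.458, which raises its scaled counts. That of PA8001 at month 0 was 1.93, which lowers its summed internal fragments from 75.4 to 39.1 CPM. Under library totals as the only scaling 0 internal fragments passed, beside 0.204% of all tested fragments.

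The call with the smaller p was tRF-19-1SS2P4IR, bases 14 to 32. It had 3.31 to 41.3 CPM at month 15, with a median of 14.4, and 0 to 9.48 at month 0, with a median of 5.47. The groups overlap at their ends, with PA8003 at 41.3, PA8001 at 37.6 and PA8873 at 27.6 on top at month 15, and 7 of 8 animals were higher than at their own month 0. Its log2 fold change was 1.97 ± 0.524 (SE), with an edgeR adjusted p of 0.0404. The other call was tRF-27-S8V0J8O9YEJ, which spans the anticodon loop and ends at base 41. It had 0.613 to 10.5 CPM at month 15, with a median of 4.42, and 0 to 3.05 at month 0, with a median of 0.977. The highest library was PA8915 at month 15 and PA8873 alone was lower at month 15, at 1 count. Its log2 fold change was 2.14 ± 0.587, with an edgeR adjusted p of 0.0441.

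The abundant base-15 fragments did not pass at month 15 against month 0. tRF-17-S8V0J8L had 21.3 to 277 CPM at month 15, with a median of 97.2, and 0 to 142 at month 0, with a median of 61.8. PA8003 and PA8001 held the 2 highest values at month 15, at 277 and 224, and PA8872 fell to the lowest value there, 21.3, against 142 at its month 0. Its log2 fold change was 0.94 ± 0.591 (edgeR adjusted p = 0.354, 5 of 8 higher), and it was -0.13 with PA8001 and PA8003 left out at month 15. The fragments 1 base shorter and 1 base longer, tRF-16-S8V0J80 and tRF-18-S8V0J8DR, had log2 fold changes of 0.80 ± 0.565 and 1.12 ± 0.574, with adjusted p of 0.409 and 0.253. The first of them also turned to -0.22 without both libraries.

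Against month 3, 9 of 23 passed at month 15, all higher, where 7.19% of all tested fragments passed as higher. All 23 had a log2 fold change above 0, with a median of 1.41 against -0.11 over all tested fragments. Here too the filter could keep a fragment through month 15 alone. The calls included each of the named fragments that begin at base 14, tRF-17-1SS2P44 at 1.65 ± 0.503, tRF-18-1SS2P4DX at 1.87 ± 0.541 and tRF-19-1SS2P4IR at 1.81 ± 0.521, with edgeR adjusted p of 0.0392, 0.0339 and 0.0336. Also called were tRF-20-JMRPFQRD from base 13, at 1.94 ± 0.628 and adjusted p of 0.0451, and tRF-17-RPFQRD5 (bases 18 to 34) at 2.00 ± 0.646 and 0.0451. From base 15, tRF-20-S8V0J8O9 passed at 1.58 ± 0.489 with adjusted p of 0.0392. The ninth call, tRF-21-1SS2P46ID (bases 14 to 34), is outside the rule for named fragments and was named after its values were seen, at 2.37 ± 0.733 with 0.0392. tRF-18-S8V0JUDR of the second read passed at 1.95 ± 0.622 with 0.0436, and tRF-19-S8V0J8HW (bases 15 to 33) at 2.19 ± 0.718 with 0.0464. With PA8001 and PA8003 left out at month 15, 0 of the 24 internal fragments tested passed in edgeR, with a median of 0.70, and 0 of all 2591 tested fragments passed. Leaving out all libraries of 1 animal gave 0 calls for PA8003, PA8873 or PA8914, 1 for PA8001 or PA8915, and 6 to 9 for the other 3. Over all tested fragments, in either direction, 0% passed without PA8873 or PA8914, 0.935% without PA8003, 4.73% without PA8915 and 7.06% without PA8001. For PA8835, PA8872 and PA8912 the shares were 14.6%, 6.63% and 7%, against 11.1% in the main fit.

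**Figure D5:**
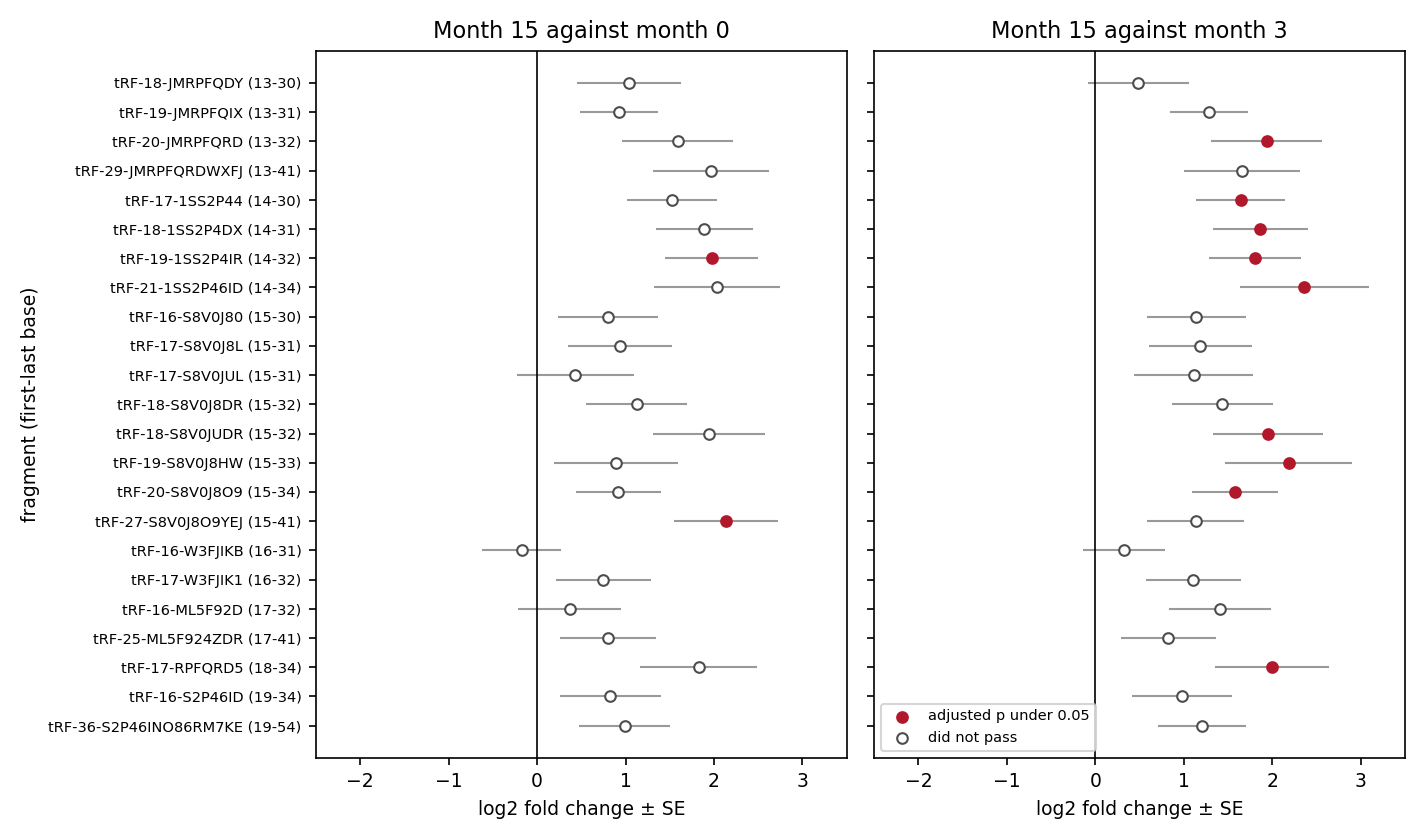
Log2 fold change with its standard error of each of the 23 tested internal fragments at month 15 against month 0 (left) and against month 3 (right), ordered by first base; filled points had an edgeR adjusted p under 0.05. On the left 2 of 23 are filled and 22 lie above 0, and on the right 9 are filled and all 23 lie above 0. A fragment could pass the filter on low counts through month 15 alone.

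A joint edgeR test, which asks whether any of the 5 months differ, passed 14 of 23, where 16.2% of all tested fragments passed. The limit of the filter given above holds for this test too. The smallest adjusted p, 0.00991, belonged to tRF-36-S2P46INO86RM7KE, the fragment that ends at base 54. Its median CPM was 7.37 at month 0, 5.96 at month 3, 5.79 at month 6, 1.97 at month 9 and 16 at month 15. Its CPM ran from 0 to 38.4 at month 0, from 0.516 to 5.62 at month 9 and from 8.04 to 44.7 at month 15. Month 15 against month 9 was not tested. It was higher at month 15 than at month 3 in 8 of 8 animals (log2 1.21 ± 0.497, edgeR adjusted p = 0.0918), and its change at month 9 against month 0 was -2.01 ± 0.546 (adjusted p = 0.582). The joint test passed 0 internal fragments, and 0 of all fragments tested, in edgeR with PA8001 and PA8003 left out at month 15. Without any library of PA8003 it passed 2, beside 1.3% of all tested fragments, and without PA8873 it passed 7, beside 4.09%. It passed 6 without PA8001 (10.6% of all) or PA8914 (5.11%) and 8 without PA8915 (13.9%). Without PA8912, PA8835 and PA8872 it passed 10, 11 and 13 (10.6%, 16.7% and 8.81% of all).

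Of the other parts of the same reads, 22 of the 96 5′-side fragments passed the filter. At month 15 against month 0, 0 of these 22 passed in edgeR. An unadjusted edgeR p under 0.05 was found for 5 of the 22, beside 509 of all 2447 tested fragments. The median of the 22 was 0.70 with 18 of 22 higher, beside a median of 0.05 over all tested fragments. Against month 3, 2 of 22 passed, both higher, beside 7.19% of all tested fragments, and the joint test passed 5 of 22, beside 16.2%. Of the parts longer than 36 nt, 5 were tested and 2 passed at month 15 against month 0, both higher, beside 2.21% of all tested fragments, among them the second 56-nt read itself, with a log2 fold change of 2.21 ± 0.473, higher in 8 of 8 animals (adjusted p = 0.0204). All calls in this paragraph were also lost with PA8001 and PA8003 left out at month 15, where 0 of all tested fragments passed. Whether internal and 5′-side fragments changed differently between months was not tested.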

How the data were processed

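The deposited table holds whole-number counts per distinct fragment and library, with no scaling, from the authors' pipeline; a second deposited table gives each fragment's sequence. Per the labels' protocols, RNA was extracted with a MagMAX kit, adapters were ligated to both ends and molecular identifiers were added at cDNA synthesis; whether counts were collapsed by them, the aligner and its tolerance for mismatches were not stated, so intervals and the floor of 3 counts cover counting error only. R 4.5.0, edgeR and limma are named in the submitters' processing notes, with no role. The 1614 lines with no fragment ID, 0.0805% of counts, were left out.

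Internal fragments were matched to the 56-nt reads by exact sequence. Levels are CPM, counts per 1000000 counts of the library, without TMM scaling. Fold changes come from edgeR 4.0.16 in R 4.3.3 (filterByExpr with a minimum count of 10, TMM scaling, robust quasi-likelihood fit of month and animal to 40 libraries, Benjamini-Hochberg over 2447 fragments, two-sided, threshold 0.05); standard errors are from the F statistic. The method was tested on simulated data with no animal effect and no outlying library. That test cannot address how calls depend on single libraries. DESeq2 1.42.0, other scalings, no filter, no block and left-out libraries were alternatives. Libraries of 1 animal share that animal per the labels: their deviations from month means correlated at a mean of 0.187, against -0.0247 between animals, and 53 of 80 pairs were above 0.1. Named fragments were the 12 with the smallest joint p among those that passed, the 10 most abundant, the most abundant of each start with at least 5% of counts, and the 3 smallest p of each contrast with month 0. Members, lists and tests were chosen with earlier results of these data known. The bins of starts and ends, the values without 3 libraries or 2 animals, the displayed scale and the comparisons with 5′-side fragments and Lys-TTT were set after the data were seen. The tables give no genome build and no tRNA gene, so no gene or coordinate is given.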

Additional observations from a re-analysis of the deposited data

Results flagged for a closer look

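In each month group of 8 libraries, a value was marked where its gap to the nearest other, divided by the range, was above Dixon's 95% critical value. This was checked in 120 groups and marked 19. Chance marks about 1 in 20 where groups are independent and values normally distributed. The groups here share libraries and overlapping fragments, and their values are skewed, so that rate cannot be set against the 19. Of these, 7 were the month 6 library of PA8873: the summed internal fragments at 481 CPM (next 234), tRF-17-S8V0J8L at 130 (next 57.8), tRF-16-S8V0J80 at 75.8, tRF-18-S8V0J8DR at 59.5, tRF-20-S8V0J8O9 at 18.5, tRF-19-S8V0J8HW at 6.27 and tRF-27-S8V0J8O9YEJ at 4.70. At month 15, PA8003 was high in the base-15 fragments of the second read that were checked, tRF-18-S8V0JUDR at 43.9 (next 9.40) and tRF-17-S8V0JUL at 15.3 (next 4.29), and PA8001 in tRF-17-1SS2P44 at 31.3. The month 15 library of PA8872 was high in both 56-nt reads, at 109.7 CPM for tRF-56-PSQP4PW3FJIKE7UMKKSWRND and 56.7 for tRF-56-PSQP4PW3FJI0E7UM8KSWRND, while its internal fragments were the lowest of that month, at 154. At month 9 PA8872 was high in tRF-18-1SS2P4DX at 19.6 and tRF-17-RPFQRD5 at 3.48.

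At month 0 PA8872 had 21.6 internal counts per 100 5′-side counts (next 11.0), and PA8915 had 38.4 CPM of tRF-36-S2P46INO86RM7KE (next 12.5). PA8001 at month 0, with 15 internal counts in all, stood apart with 20% of them ending at bases 30 to 32, 100% from the first read and 40.2 CPM of tRF-20-S8V0J8O9. No explanation was tested for any of these.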

How the results depend on the processing

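The internal fragments passing at month 15 against month 0, against month 3 and jointly numbered 2, 9 and 14, beside 2.37%, 11.1% and 16.2% of all tested fragments. With DESeq2 they were 7, 12 and 19 (6.17%, 21.2% and 26.8% of all), with 1 at month 6 (0.906%); with library totals 0, 5 and 13 (0.204%, 1.92% and 5.19%); with RLE size factors 1, 5 and 13 (1.92%, 8.46% and 15.6%); with no filter on low counts 0, 2 and 26 (0.0905%, 0.189% and 0.865%). With no replicate block for the animal they were 5, 12 and 16 (2.82%, 7.40% and 13.5%), and tRF-16-W3FJIKB turned to 0.38 at month 15 against month 0. Fitting only the 2 months compared gave 0 and 0 (0% of all in both). Without the month 0 library of PA8001 they were 0, 10 and 13 (0.743%, 12.6% and 16.9%). With PA8001 and PA8003 left out at month 15 all were 0, as over all fragments, and log2 fold changes at month 15 against month 0 turned to -0.10 for tRF-17-W3FJIK1, -0.13 for tRF-17-S8V0J8L, -0.22 for tRF-16-S8V0J80, -0.67 for tRF-16-ML5F92D, -0.083 for tRF-19-S8V0J8HW and -0.87 for tRF-17-S8V0JUL. The cause was not tested. Leaving out each animal in turn gave 0 to 3, 0 to 9 and 2 to 13 calls (0% to 3.10%, 0% to 14.6% and 1.30% to 16.7% of all). It gave log2 fold changes of -0.24 to 0.84 for tRF-16-ML5F92D, -0.35 to 0.80 for tRF-17-S8V0JUL and -0.69 to 0.13 for tRF-16-W3FJIKB, and summed differences of 203.5 to 392.9 CPM. The median of all tested fragments at month 3 against month 0 was 0.10 (log2) under TMM and 0.00 under library totals; for month 15 against month 3 it was -0.11 and 0.01. The number of internal fragments higher at month 15 was 22 of 23 under TMM, library totals and RLE alike, after the same filter. Depth limits most members: 357 of 380 were not tested, 230 had under 10 counts, and 3 counts equal 0.480 to 15.1 CPM. Rows that end past base 56 or match a read only in part were not analysed here, and 1-base variants (7457 counts) were left out. Of these, 3563 counts had C for G at base 28, and 3520 of those were in rows that match Lys-TTT reads.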
